A study of Mus musculus with 9 samples.

Results

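Neutrophils take up, store and release iron through a small set of transporters, binding proteins and regulators, and 10 genes of that set were described here in RNA-seq libraries of sorted lung neutrophils. The 10 genes were chosen by symbol: Tfrc, Slc11a2, Slc11a1 and Steap4 (uptake and transport), Fth1, Ftl1 and Ncoa4 (storage), Slc40a1 (export), and Aco1 and Ireb2 (regulation). All 10 were found among the 22064 genes listed, of which 18325 carried values, and all 10 passed the filter on low counts.

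The 9 libraries came from female BALB/c mice and formed 3 groups of 3. Ly6Ghigh and Ly6Glow neutrophils were sorted from lung at the macrometastatic (MACRO) stage that followed orthotopic fat pad injection of 4T1-LM3 cells, a lung-tropic derivative of the 4T1 mouse mammary carcinoma line. Ly6Ghigh neutrophils from normal lung (NL) formed the remaining group, whose normal state rests on the titles and the treatment field, since the description field does not set these libraries apart. No age was given in the labels, and whether a library came from 1 mouse or from a pool was not stated, so p-values measure only the spread between these libraries. The groups served to compare the neutrophil subsets at the metastatic stage and each subset with normal lung neutrophils.

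As background, iron enters cells bound to transferrin through the transferrin receptor, is reduced, crosses the endosomal or phagosomal membrane through Slc11 family transporters, and is held in ferritin shells of heavy and light chains. Ferroportin is the only known exporter of iron from mammalian cells. The iron regulatory proteins Aco1 and Ireb2 bind a hairpin, the iron-responsive element (IRE): in a 5′ UTR it blocks translation, and in the 3′ UTR of Tfrc it protects the mRNA from decay. Macrophages and neutrophils use the same genes to keep iron from microbes.

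The hairpins are shown to mark where in the transcript each one lies. A search of GENCODE M21 transcripts on mm10 (GRCm38) for C, any 5 bases, the loop CAGTGN and 5 bases that pair with the first 5 (Watson-Crick or G-T pairs), on the transcript strand only, found the element in 4 of the 10 genes and in 294 of 21877 protein-coding genes (1.34%). Capitals mark the 6-base loop, and each site is 30 bases, 5′ to 3′.
Fth1, 5′ UTR, exon 1, chr19:9982731-9982760, plus strand: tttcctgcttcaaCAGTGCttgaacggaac
Ftl1, 5′ UTR, exon 1, chr7:45459779-45459808, minus strand: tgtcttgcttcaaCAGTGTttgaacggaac
Slc40a1, 5′ UTR, exon 1, chr1:45925465-45925494, minus strand: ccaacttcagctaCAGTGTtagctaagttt
Tfrc, 3′ UTR, exon 19, chr16:32631218-32631247, plus strand: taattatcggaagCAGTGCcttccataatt
Tfrc, 3′ UTR, exon 19, chr16:32631597-32631626, plus strand: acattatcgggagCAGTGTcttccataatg
Tfrc, 3′ UTR, exon 19, chr16:32631662-32631691, plus strand: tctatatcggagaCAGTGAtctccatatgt
Tfrc, 3′ UTR, exon 19, chr16:32631709-32631738, plus strand: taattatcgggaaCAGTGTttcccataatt
The ferritin sites were identical at 27 of 30 bases, whereas Fth1 and Slc40a1 shared 13 of 30. A match describes these letters only, and mRNA counts do not measure translation. Slc11a2 is also known for an IRE but held no site of this strict form. The lack of a match therefore does not exclude an element.

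Library totals ran from 15267177 to 17841807 estimated counts. The sort could be checked on its markers: a list of 10 neutrophil genes summed to 71000 to 72800 CPM (counts scaled to library size with edgeR's TMM factors) in MACRO Ly6Ghigh, 76300 to 78000 in MACRO Ly6Glow and 18300 to 18500 in NL libraries. Ly6g itself was at 361 to 380, 385 to 403 and 118 to 120 CPM in the same order, so the transcript was not lower in the Ly6Glow libraries. The NL libraries held more lung-cell RNA, with 8 epithelial or tumor cell markers summing to 1110 to 1240 CPM against 104 to 112 in the MACRO libraries, 6 endothelial markers to 783 to 826 against 119 to 152, 6 fibroblast markers to 538 to 569 against 51.8 to 59.8, and 10 alveolar macrophage markers to 1090 to 1100 against 79.8 to 280. None of these non-erythroid lists had a marker at 0 in a whole group. The 8 erythroid markers present summed to at most 0.452 CPM in MACRO libraries, where Hba-a2, Slc4a1 and Klf1 were at 0, and to 11.9 to 15.5 CPM in NL libraries. The lists for monocytes or macrophages (559 to 566 CPM in MACRO Ly6Ghigh, 613 to 645 in MACRO Ly6Glow, 760 to 812 in NL), dendritic cells (10.6 to 14.9 in MACRO and 33.2 to 38.2 in NL) and T, B or NK cells (46.5 to 74.0 and 75.6 to 76.4) were also summed. The first and last of these sums hide differences between their markers. By the count test below, 7 of the 10 monocyte or macrophage markers were called lower than NL in each MACRO group and 1 higher. Of the 8 tested T, B or NK cell markers, 4 were called lower in each MACRO group. Called higher were 2 of them in MACRO Ly6Ghigh and 1 in Ly6Glow. Over all tested genes 36.6% and 40.8% were called lower and 26.3% and 28.7% higher. The part of other cells in the NL comparisons was not tested, and in bulk libraries fewer cells of a type and less RNA per cell cannot be told apart.

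By FPKM, which is per transcript length, the 10 genes spanned a 1810-fold range of mean levels, from Fth1 to Slc11a2. In MACRO Ly6Ghigh libraries the order was Fth1 (4123 ± 59.8 FPKM, SD, n = 3), Ftl1 (1818 ± 45.3), Steap4 (199.6 ± 1.86), Slc11a1 (111.8 ± 0.99), Slc40a1 (72.3 ± 0.632), Ncoa4 (72.1 ± 1.26), Ireb2 (12.7 ± 1.11), Tfrc (6.00 ± 0.208), Aco1 (3.41 ± 0.199) and Slc11a2 (1.44 ± 0.111). Slc40a1 and Ncoa4 were the only neighbours in that order whose libraries overlapped. MACRO Ly6Glow libraries kept the order, with no neighbours overlapping, from 6917 ± 116 FPKM for Fth1 to 0.67 ± 0.123 for Slc11a2. In NL libraries Slc11a1 (234.6 ± 11.8 FPKM) stood above Steap4 (111.2 ± 4.54), Ncoa4 (96.7 ± 4.30) above Slc40a1 (28.3 ± 0.712), and the lowest places went to Aco1 (8.39 ± 0.18), Slc11a2 (7.48 ± 0.252) and Tfrc (6.19 ± 0.736). Fth1 ranked 3, 10 and 3 among 18325 genes by mean FPKM in Ly6Glow, MACRO Ly6Ghigh and NL libraries, respectively.

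**Figure D1:**
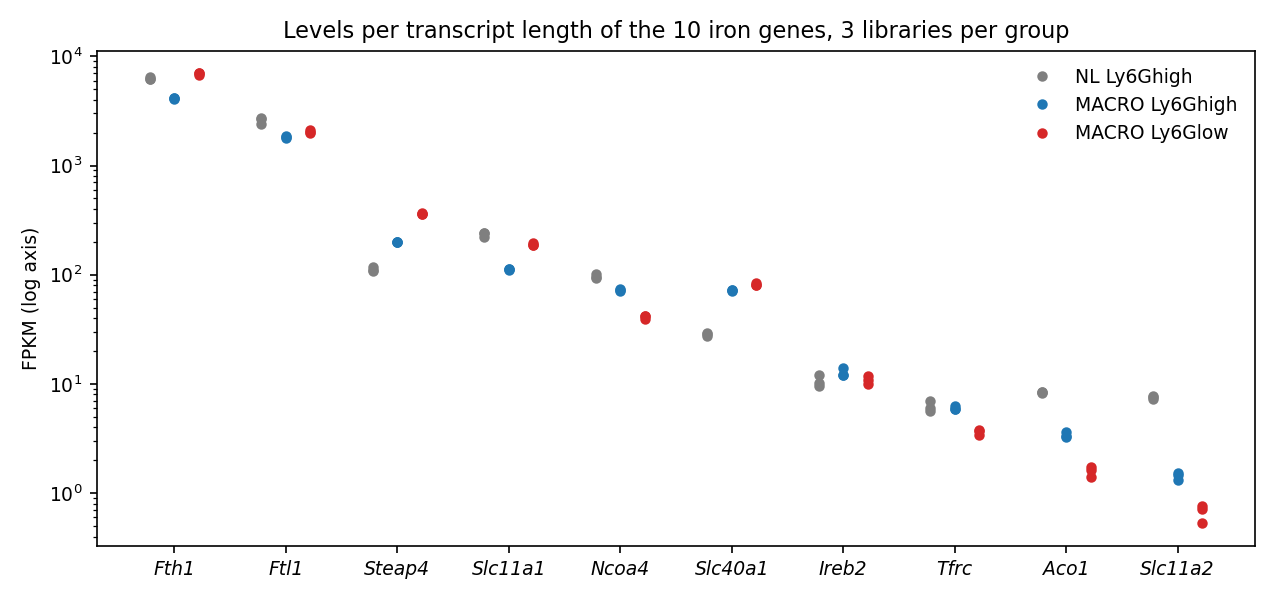
FPKM (log axis) of the 10 iron genes in each library, ordered by mean level, with 3 points per group (grey, NL Ly6Ghigh; blue, MACRO Ly6Ghigh; red, MACRO Ly6Glow). Fth1 and Ftl1 lie above 1780 FPKM in every library, and the groups separate most widely for Aco1 and Slc11a2.

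The main test compared estimated counts with edgeR, and a gene was called at a Benjamini-Hochberg adjusted p of at most 0.05 over 14108 tested genes together with a log2 fold change beyond 0.58 in either direction. Between the MACRO subsets, 3 members were called higher in Ly6Glow (Steap4, Slc11a1 and Fth1) and 3 lower (Slc11a2, Aco1 and Ncoa4). Over all tested genes 9.29% were called higher, 15.9% lower and 25.2% in either direction. By the adjusted p alone 9 of the 10 members passed, as did 55.8% of all tested genes. The libraries of the subsets did not overlap for 9 of the 10 members, Ireb2 being the exception, and for 62.1% of all tested genes. The median of the members was 0.19 on the log2 scale, against -0.04 for all tested genes.

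Steap4 (chr5:7960472-7982213, positions here and in the following being those of RefSeq on GRCm38.p6) encodes a metalloreductase that turns ferric into ferrous iron. Its libraries read 658.1, 643.2 and 650.3 CPM in MACRO Ly6Ghigh, 1382, 1381 and 1416 CPM in MACRO Ly6Glow, and 257.1, 272.0 and 259.0 CPM in NL. The 3 groups were fully separated, with Ly6Glow highest and NL lowest. Steap4 was 2.14-fold higher in Ly6Glow than in MACRO Ly6Ghigh (log2 fold change 1.10 ± 0.0306 SE, edgeR, Benjamini-Hochberg adjusted p = 1.31e-17). Against NL it was higher by 1.31 ± 0.0315 on the log2 scale in MACRO Ly6Ghigh and by 2.41 ± 0.0321 in Ly6Glow, and every other scaling, filter, test and left-out library kept all of these calls.

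Slc11a1 (chr1:74375014-74386057), also known as Nramp1, moves divalent metals across the phagosomal membrane. MACRO Ly6Ghigh libraries held 273.7, 270.6 and 267.7 CPM, MACRO Ly6Glow libraries 537.9, 553.2 and 529.0, and NL libraries 430.2, 384.6 and 424.9. The MACRO Ly6Ghigh group was the lowest of the 3 without overlap. The gene was 2.00-fold higher in Ly6Glow than in MACRO Ly6Ghigh (log2 fold change 1.00 ± 0.039, edgeR, Benjamini-Hochberg adjusted p = 3.3e-15), and MACRO Ly6Ghigh was lower than NL by a log2 fold change of -0.61 ± 0.0386. Between Ly6Glow and NL the log2 difference of 0.39 ± 0.0379 was not called and turned to -0.31 on the log2(FPKM + 1) scale.

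Slc11a2 (chr15:100387898-100424209), the divalent metal transporter DMT1 that carries ferrous iron out of endosomes, was the rarest member, with 5.84, 5.43 and 5.01 CPM in MACRO Ly6Ghigh, 2.36, 3.01 and 3.28 CPM in MACRO Ly6Glow, and 20.8, 19.4 and 20.7 CPM in NL, equal to 29.3 to 43.0 estimated counts per library in Ly6Glow. The groups did not overlap. The log2 fold change was -0.91 ± 0.147 between the MACRO subsets (edgeR, Benjamini-Hochberg adjusted p = 1.83e-05), -1.90 ± 0.0919 for MACRO Ly6Ghigh against NL and -2.81 ± 0.112 for Ly6Glow against NL. On the log2(FPKM + 1) scale the difference between the MACRO subsets was -0.55 and was no longer called. Mean levels were 1.44 FPKM in MACRO Ly6Ghigh and 0.67 in Ly6Glow, so the added 1 shrinks the difference. Over 10 settings other than left-out libraries the log2 fold change ran from -1.01 to -0.55, and 8 kept the call. The call also held with each of the 9 libraries left out. Transcript forms of Slc11a2 cannot be told apart in gene counts.

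Tfrc (chr16:32608896-32632794), the transferrin receptor whose 3′ UTR carries the 4 hairpins printed above, was low in all groups. MACRO Ly6Ghigh libraries read 32.23, 29.99 and 30.33 CPM, MACRO Ly6Glow libraries 22.9, 20.6 and 22.3 CPM, and NL libraries 22.5, 25.9 and 20.9 CPM. MACRO Ly6Ghigh was above the other groups without overlap. The log2 fold change was -0.49 ± 0.078 between the MACRO subsets, past the adjusted p (1.28e-05, edgeR, Benjamini-Hochberg) but not past the fold threshold, whereas it was -0.60 and called with log2(FPKM + 1). It was 0.42 ± 0.0707 for MACRO Ly6Ghigh against NL, which turned to -0.034 with log2(FPKM + 1), and -0.074 ± 0.0783 for Ly6Glow against NL, which turned to 0.016 with DESeq2 size factors and was -0.63 and called with log2(FPKM + 1). The sum of 10 cycling cell markers was also higher in MACRO Ly6Ghigh libraries (604 to 608 CPM) than in MACRO Ly6Glow (154 to 161) and NL (236 to 246). Of the 10, 9 were called lower in Ly6Glow than in MACRO Ly6Ghigh (15.9% of all tested genes). Against NL, 7 were called higher in MACRO Ly6Ghigh and 1, Mcm2, lower (26.3% and 36.6% of all tested genes). The part of cycling cells in the Tfrc level was not tested.

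**Figure D2:**
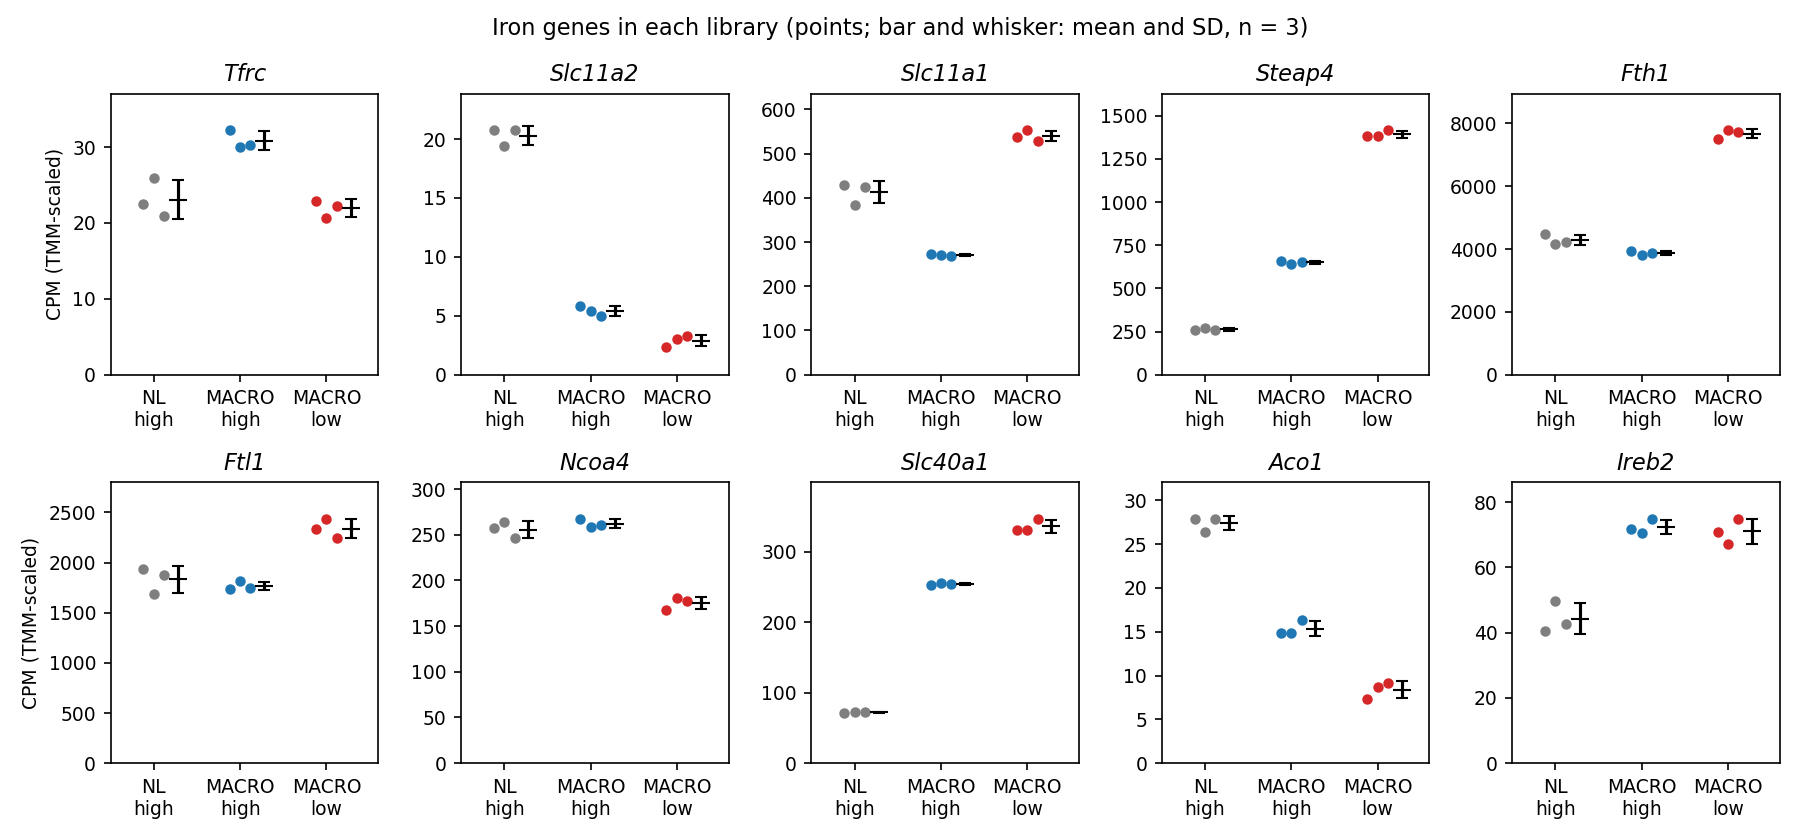
TMM-scaled CPM of each iron gene in the 3 NL Ly6Ghigh (grey), 3 MACRO Ly6Ghigh (blue) and 3 MACRO Ly6Glow libraries (red), each axis starting at 0, with the mean and SD beside the points. Steap4 and Slc40a1 are lowest in NL and highest in MACRO Ly6Glow, Slc11a2 and Aco1 are in the reverse order, and Slc11a1 is lowest in MACRO Ly6Ghigh.

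Among the storage genes, Fth1 (chr19:9980600-9985111), the heavy chain with the ferroxidase centre of ferritin, read 3946, 3817 and 3887 CPM in MACRO Ly6Ghigh, 7513, 7784 and 7724 CPM in MACRO Ly6Glow, and 4464, 4158 and 4220 CPM in NL. No groups overlapped, and Ly6Glow stood far above the others. Fth1 was 1.98-fold higher in Ly6Glow than in MACRO Ly6Ghigh (log2 fold change 0.98 ± 0.0295, edgeR, Benjamini-Hochberg adjusted p = 4.37e-17). The log2 fold change of Ly6Glow against NL was 0.84 ± 0.0294 and called, but 0.14 and not called with log2(FPKM + 1), and that of MACRO Ly6Ghigh against NL was -0.14 ± 0.0292 and not called, but -0.60 and called with log2(FPKM + 1).

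Ftl1 (chr7:45457944-45459886), the light chain that aids mineral formation in the ferritin core, differed less. It read 1735, 1812 and 1751 CPM in MACRO Ly6Ghigh, 2332, 2438 and 2249 CPM in MACRO Ly6Glow, and 1938, 1684 and 1879 CPM in NL. Ly6Glow lay above both other groups, which overlapped. Its log2 fold change of 0.41 ± 0.041 between the MACRO subsets passed the adjusted p (2.19e-08, edgeR, Benjamini-Hochberg) but not the fold threshold, and 0.35 ± 0.0409 against NL turned to -0.35 with log2(FPKM + 1). Ferritin genes have processed pseudogenes, so reads of both may be split among copies and their counts are uncertain.

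The chains were also compared within libraries. The ratio of Fth1 to Ftl1 FPKM within a library was 2.35, 2.17 and 2.29 in MACRO Ly6Ghigh, 3.32, 3.29 and 3.54 in MACRO Ly6Glow, and 2.38, 2.55 and 2.32 in NL. All Ly6Glow libraries exceeded all others, whereas the MACRO Ly6Ghigh and NL groups overlapped. An exact two-sided permutation test gave p = 0.1 for Ly6Glow against each other group, the smallest value that 3 against 3 allows, and p = 0.2 for MACRO Ly6Ghigh against NL. As a share of all estimated counts, unscaled, the ferritin chains together held 0.534% to 0.537% in MACRO Ly6Ghigh, 0.794% to 0.82% in Ly6Glow and 0.773% to 0.83% in NL libraries, so Ly6Glow and NL overlapped on that measure.

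Ncoa4 (chr14:32159879-32179855), the receptor that delivers ferritin to lysosomes for iron release, read 267.6, 258.3 and 260.2 CPM in MACRO Ly6Ghigh, 167.6, 180.5 and 177.5 CPM in MACRO Ly6Glow, and 257.1, 263.9 and 246.1 CPM in NL. The Ly6Glow group was lowest, and the others overlapped. The log2 fold change between the MACRO subsets was -0.58 ± 0.0385 (edgeR, Benjamini-Hochberg adjusted p = 2.32e-11), at the edge of the fold threshold. The call ended without MACRO Ly6Ghigh replicate 1 (-0.57), without Ly6Glow replicate 1 (-0.55), with DESeq2 size factors or the DESeq2 test (-0.51), with upper-quartile factors (-0.58) and in a fit of the 6 libraries alone (-0.57). Against NL, Ly6Glow differed by -0.54 ± 0.0381, not called, but by -1.22 and called with log2(FPKM + 1), and MACRO Ly6Ghigh by 0.035 ± 0.0365, which turned to -0.16 with upper-quartile factors.

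**Figure D3:**
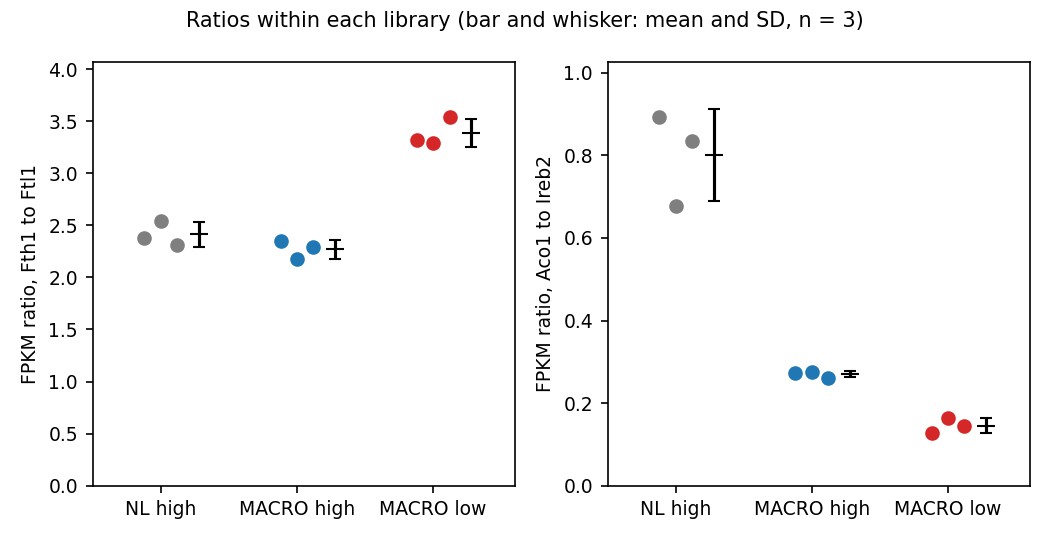
Ratio of FPKM within each library for Fth1 to Ftl1 (left) and Aco1 to Ireb2 (right), axes starting at 0, with the mean and SD of 3 libraries per group beside the points. The Fth1 to Ftl1 ratio is 3.29 or more only in the MACRO Ly6Glow libraries, and the Aco1 to Ireb2 ratio is highest in the NL libraries.

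Slc40a1 (chr1:45908070-45926532), ferroportin, had the widest increase against normal lung of any member in MACRO Ly6Ghigh libraries. NL libraries read 70.8, 73.0 and 72.4 CPM, MACRO Ly6Ghigh libraries 252.1, 255.0 and 254.3, and MACRO Ly6Glow libraries 330.9, 330.7 and 346.6. The groups were fully separated. Against NL, Slc40a1 was 3.52-fold higher in MACRO Ly6Ghigh (log2 fold change 1.82 ± 0.036, edgeR, Benjamini-Hochberg adjusted p = 3.24e-21) and 4.66-fold higher in Ly6Glow (2.22 ± 0.0361). Both calls held under every other scaling, filter, test and left-out library. The log2 difference between the MACRO subsets, 0.41 ± 0.0333, was past the adjusted p but not the fold threshold.

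Of the regulators, Aco1 (chr4:40143265-40199009), which serves as cytosolic aconitase when it carries an iron-sulphur cluster and as iron regulatory protein without it, read 14.9, 14.8 and 16.3 CPM in MACRO Ly6Ghigh, 7.31, 8.73 and 9.15 CPM in MACRO Ly6Glow, and 27.9, 26.4 and 27.8 CPM in NL. The groups did not overlap. Its log2 fold change was -0.87 ± 0.0943 between the MACRO subsets (edgeR, Benjamini-Hochberg adjusted p = 6.83e-08), -0.83 ± 0.0698 for MACRO Ly6Ghigh against NL and -1.70 ± 0.0832 for Ly6Glow against NL, and these calls held under every other scaling, filter, test and left-out library.

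Ireb2 (chr9:54862658-54912534), the second regulatory protein, which is degraded when iron is plentiful, read 71.8, 70.5 and 74.8 CPM in MACRO Ly6Ghigh, 70.8, 67.3 and 74.9 CPM in MACRO Ly6Glow, and 40.6, 49.6 and 42.6 CPM in NL. The MACRO groups overlapped and both lay above NL. The log2 fold change against NL was 0.71 ± 0.0609 in MACRO Ly6Ghigh and 0.68 ± 0.0628 in Ly6Glow (edgeR, Benjamini-Hochberg adjusted p = 4.42e-10 and 1.31e-09), but 0.52 and 0.49 with upper-quartile factors and 0.24 and 0.051 with log2(FPKM + 1), no longer called. Between the MACRO subsets the log2 difference was -0.027 ± 0.0614, which turned to 0.039 with DESeq2 size factors.

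The ratio of Aco1 to Ireb2 FPKM within a library was 0.893, 0.678 and 0.835 in NL, 0.273, 0.275 and 0.261 in MACRO Ly6Ghigh, and 0.127, 0.164 and 0.145 in MACRO Ly6Glow libraries. No library of one group reached the range of another. Each of the 3 comparisons gave p = 0.1 in the exact two-sided permutation test, the smallest it can give.

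Against NL, 3 members were called higher in MACRO Ly6Ghigh (Slc40a1, Steap4 and Ireb2) and 3 lower (Slc11a2, Aco1 and Slc11a1), where 26.3% of all tested genes were called higher, 36.6% lower and 62.9% in either direction. By the adjusted p alone 8 of the 10 passed (84.6% of all tested genes), and 8 had libraries that did not overlap (85.2%). In Ly6Glow, 4 were called higher (Steap4, Slc40a1, Fth1 and Ireb2) and 2 lower (Slc11a2 and Aco1), against 28.7% and 40.8% of all tested genes, or 69.5% in either direction. By the adjusted p alone 9 of the 10 passed (86.8% of all tested genes), and 9 had libraries that did not overlap (86.8%). With log2(FPKM + 1) the Ly6Glow count was 2 higher and 4 lower. The median log2 fold change of all tested genes on that scale was -0.49, and the share of them called was not computed. The comparisons share libraries, so their counts are not independent.

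The median log2 fold change over all tested genes was -0.04, -0.09 and -0.16 for Ly6Glow against MACRO Ly6Ghigh, MACRO Ly6Ghigh against NL and Ly6Glow against NL with TMM, and -0.13, -0.32 and -0.49 with log2(FPKM + 1). Relative to those medians, Fth1 was higher in Ly6Glow than in NL by 1.00 with TMM and by 0.63 with log2(FPKM + 1), and Ireb2 by 0.84 and 0.54. Ftl1 lay 0.51 and 0.14 above the median in that comparison, Slc11a1 0.54 and 0.18, and Tfrc 0.08 and -0.14, and Tfrc was the only member to change sign there. Between MACRO Ly6Ghigh and NL, Ftl1 (0.03 and -0.19) and Ncoa4 (0.12 and -0.09) changed sign relative to the medians. Between the MACRO subsets Fth1 lay 1.02 and 0.88 above the median, Steap4 1.14 and 0.99, and Slc11a1 1.04 and 0.89.

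**Figure D4:**
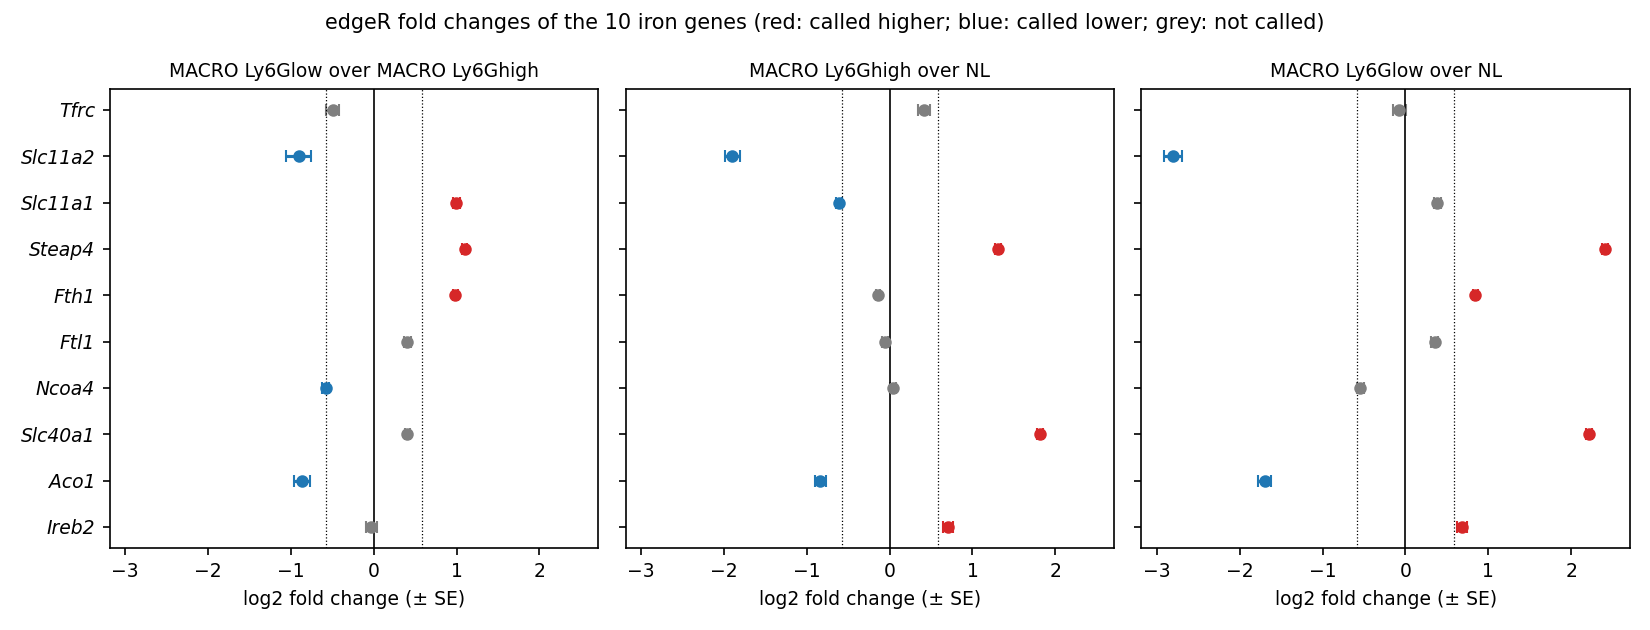
Log2 fold change with SE from edgeR for the 10 iron genes in the 3 comparisons, with dotted lines at 0.58 in each direction and colour for the call (red higher, blue lower, grey not called). Steap4 is called higher in all 3 panels and Slc11a2 and Aco1 lower in all 3, while Ftl1 and Tfrc are called in none.

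Other cell types also differed between the MACRO subsets. The alveolar macrophage list summed to 273 to 280 CPM in Ly6Ghigh and 79.8 to 80.3 CPM in Ly6Glow. The 8 eosinophil markers summed to 223 to 240 and 42.3 to 43.3 CPM (191 to 197 in NL). Both sums hide differences between markers. Krt79 was at 7.33 and 0.178 CPM in Ly6Ghigh and Ly6Glow, but Siglecf at 31.4 and 29.5. In Ly6Glow 7 of 10 alveolar macrophage and 7 of 8 eosinophil markers were called lower (15.9% of all tested genes). Prg2 was at 29.4 CPM in MACRO Ly6Ghigh and 0.226 in NL, but Ear2 at 71.1 and 111. Against NL, 5 of 8 eosinophil markers were called higher in MACRO Ly6Ghigh and 1 lower (26.3% and 36.6% of all tested genes). The part of these cells in the members' differences was not tested.

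Of 60 further iron and heme genes, 49 were tested. In Ly6Glow against MACRO Ly6Ghigh, 3 were called higher and 10 lower. In either direction this was 26.5% of the 49, against 25.2% of all tested genes. On log2(FPKM + 1) the counts were 1 higher and 11 lower. The median of all tested genes on that scale was -0.13, and the share of them called was not computed. Trf, the transferrin gene, was at 1217, 1254 and 1221 CPM in Ly6Glow and 659.3, 677.2 and 649.8 CPM in MACRO Ly6Ghigh (log2 fold change 0.89 ± 0.0342), and was the 1 gene still called higher on log2(FPKM + 1). Fbxl5, an iron-sensing ubiquitin ligase subunit that removes Ireb2 when iron is plentiful, was at 1982, 1948 and 2103 CPM against 1234, 1227 and 1215 CPM (0.71 ± 0.0342, but 0.46 and not called with log2(FPKM + 1)), and at 550.6, 592.5 and 551.1 CPM in NL. Isca1, an iron-sulphur cluster assembly factor, differed by 0.58 ± 0.0611 on the log2 scale, at the edge of the threshold. That call was lost without MACRO Ly6Ghigh replicate 1 (0.57) or 2 (0.55), Ly6Glow replicate 3 (0.52) or NL replicate 3 (0.58), with no filter on low counts (0.56), with at least 10 counts in every library (0.57), and with log2(FPKM + 1) (0.33).

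Among the 10 called lower in Ly6Glow were Ltf and Flvcr2. Ltf, lactoferrin of the secondary granules, was at 3072, 3063 and 3023 CPM in Ly6Glow against 11600, 11400 and 11330 CPM in MACRO Ly6Ghigh (log2 fold change -1.91 ± 0.0278). Flvcr2, a membrane transporter of the FLVCR family, stood at 4, 2 and 2 estimated counts per library in Ly6Glow against 85, 106.7 and 77 counts in MACRO Ly6Ghigh. Lcn2, the siderophore-binding lipocalin, differed by -0.41 ± 0.0344 and was not called, but by -0.65 and called with log2(FPKM + 1). Slc22a17 (-0.98 ± 0.519), Pcbp1 (0.11 ± 0.038), Pcbp2 (-0.028 ± 0.0364), Bmp6 (0.091 ± 0.194), Cp (-0.095 ± 0.0885) and Heph (0.27 ± 0.439) were not called. Slc22a17 was called without Ly6Glow replicate 2 (-2.64), and the sign changed for Pcbp1 (-0.12) and Bmp6 (-0.065) with log2(FPKM + 1), for Pcbp2 (0.038) with DESeq2 size factors and for Heph (-0.056) without MACRO Ly6Ghigh replicate 3.

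Against NL, 11 were called higher and 22 lower in MACRO Ly6Ghigh (22.4% and 44.9% of the 49, against 26.3% and 36.6% of all tested genes). In Ly6Glow 14 were called higher and 24 lower (28.6% and 49.0%, against 28.7% and 40.8%). The counts in Ly6Glow were 5 and 28 on log2(FPKM + 1). The median of all tested genes on that scale was -0.49, and the share of them called was not computed. Called increases in MACRO Ly6Ghigh included Ltf by 2.72 ± 0.0286 and Lcn2 by 2.62 ± 0.0366 on the log2 scale, and Hp, haptoglobin, by 2.01 ± 0.0403. In Ly6Glow the same genes were higher by 0.81 ± 0.0272, 2.21 ± 0.0361 and 2.18 ± 0.0406, but Ltf only by 0.11, and not called, with log2(FPKM + 1). Alas1, the first enzyme of heme synthesis, was higher by 1.11 ± 0.0372 in MACRO Ly6Ghigh and 1.42 ± 0.0374 in Ly6Glow. The mitochondrial iron importers were called higher in the same 2 groups, Slc25a28 by 1.07 ± 0.0607 and 0.75 ± 0.0652 and Slc25a37 by 0.99 ± 0.0419 and 1.49 ± 0.0418. By FPKM, however, Slc25a28 averaged 18.2 in Ly6Glow and 17.6 in NL. Fbxl5 was higher by 1.12 ± 0.0347 and 1.83 ± 0.0352, and Trf by 1.12 ± 0.0342 in Ly6Glow, or by 0.42 and not called with log2(FPKM + 1). Pcbp1, an iron chaperone, was called higher in Ly6Glow (0.61 ± 0.0382), but this turned to -0.089 with log2(FPKM + 1) and was not called with upper-quartile factors (0.42) or at least 10 counts in every library (0.43), and in MACRO Ly6Ghigh it was not called (0.50 ± 0.0376). Pcbp2 was called in neither group (0.044 ± 0.0352 and 0.016 ± 0.0359), and with log2(FPKM + 1) was at -0.41, not called, and -0.65, called.

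Genes lower than in NL included Slc39a8, a divalent metal importer, by log2 fold changes of -2.55 ± 0.0924 and -2.68 ± 0.101 in MACRO Ly6Ghigh and Ly6Glow, Alad of heme synthesis (-2.39 ± 0.126 and -2.96 ± 0.147), Abcb10 (-1.11 ± 0.155 and -1.73 ± 0.181) and Slc22a17 (-2.61 ± 0.273 and -3.59 ± 0.343). Of the 8 genes listed for iron oxidation and the hepcidin axis 3 were tested, and these were called lower in both MACRO groups, where 36.6% and 40.8% of all tested genes were, with Bmp6 at -3.62 ± 0.11 and -3.53 ± 0.116, Cp at -2.31 ± 0.0621 and -2.41 ± 0.0667, and Heph at -3.60 ± 0.241 and -3.33 ± 0.25. Flvcr2 was at 657.9, 638.0 and 720.0 estimated counts per NL library. Slc22a17 rested on few MACRO counts, 15, 16 and 7 in MACRO Ly6Ghigh and 2, 12 and 0.98 in Ly6Glow. So did Heph, with 8, 8 and 3 and with 4, 7 and 7 counts in the same order. The lung-cell markers given above were higher in the same NL libraries.

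**Figure D5:**
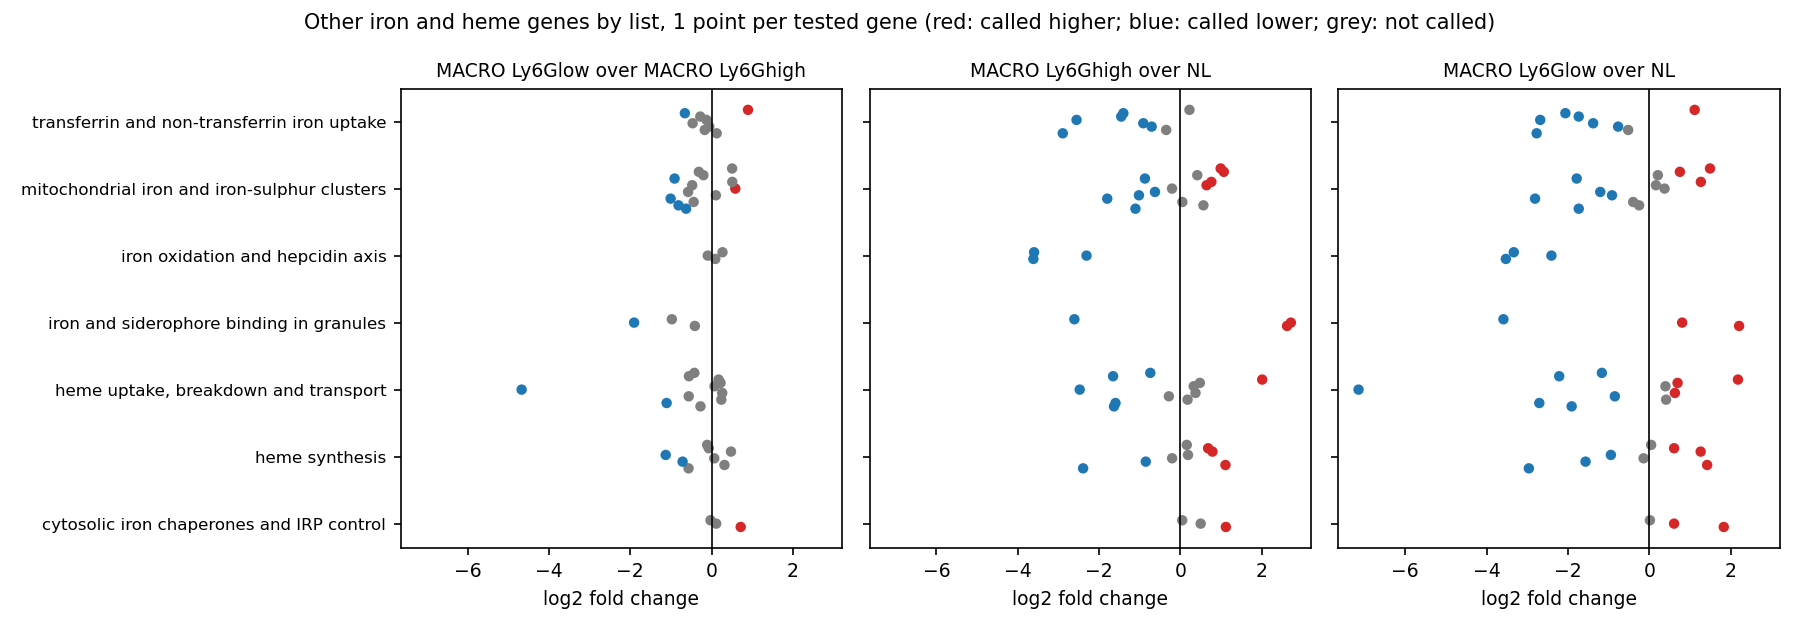
Log2 fold change of the 49 tested genes of 7 iron and heme lists in the 3 comparisons, 1 point per gene, coloured by call (red higher, blue lower, grey not called). In Ly6Glow against MACRO Ly6Ghigh 36 of 49 genes are grey, and against NL the points spread further to both sides.

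The genes most like each member across the 9 libraries, by Pearson correlation of log2 CPM among 7397 or 7398 other genes with at least 10 CPM on average, were taken as a description only, since 3 tight groups leave little room between patterns. For Steap4 they were Spop, Zfp36l2 and Mcl1 (r = 0.9998, 0.9997 and 0.9995), and 338 genes reached 0.99. Slc40a1 was nearest to Sft2d2, Eloa and Slfn1 (r of at least 0.9996), with 714 genes reaching 0.99. Fth1 was nearest to Ist1, Klf3 and Ubap1, Slc11a1 to Ppp1r15a, Ankrd11 and Ndel1, Slc11a2 to Dtx3, Hmgn1 and Lgals3bp, and Aco1 to Acss1, Crybg1 and Rexo2. Ireb2 was nearest to Ankrd12, Cul4b and Mcts1, Ftl1 to Slc27a4, Sf1 and Samd4b, and Ncoa4 to Snrpb, Fam120a and Lig1. Tfrc had the loosest match, Selenof at r = 0.9874, then Mbnl3 and Dek, and no gene reached 0.99. Among the 45 pairs of members, r over the 9 libraries was at least 0.95 for 4, namely Slc11a2 with Aco1 (0.973), Fth1 with Ftl1 (0.959), Steap4 with Slc40a1 (0.955) and Slc40a1 with Ireb2 (0.953). It was -0.95 or lower for 5, namely Steap4 with Aco1 (-0.989), Slc11a2 with Steap4 and with Slc40a1 (both -0.982), Fth1 with Ncoa4 (-0.981) and Ftl1 with Ncoa4 (-0.953).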

How the data were processed

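RNA from sorted neutrophils had been poly(A) selected, made into strand-specific paired-end libraries and sequenced by BGI. The deposited estimated counts and FPKM values, both made by the authors, are 1 column per library, and 37.9% of the estimated counts were whole numbers (within 1e-9). The genome build mm10 comes from the submitters' processing notes, and the aligner and counter are not given in the sources used here. Of 22064 genes, 3739 were blank. Samples were grouped by title and treatment field. FPKM was used for levels between genes and for ratios.

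Estimated counts were rounded and tested in R 4.3.3 with edgeR 4.0.16 (quasi-likelihood F test, TMM, filterByExpr, group as the only term, all 9 libraries), with Benjamini-Hochberg adjustment over 14108 genes. SEs are the log2 fold change divided by the square root of F. TMM factors ran from 0.803 to 1.32. Alternatives were DESeq2 1.42.0, limma 3.58.1 on log2(FPKM + 1) and log2(FPKM + 0.1), other scalings, filters, fold thresholds, a replicate block and each library left out. Correlations of log2 CPM ran from 0.9905 to 0.9944 within groups and from 0.878 to 0.975 between them. The chi-square per gene between libraries of a group averaged 1.40 to 5.36, and no libraries were merged as duplicates. The fit was tested on simulated data.

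The members and gene lists were chosen with earlier results of these data known. The genes named outside the members were, in each further list and comparison, the called genes with the largest increase and decrease at 5 CPM or more in the higher group, and every tested gene of lists with under 5 of them; some genes that meet this rule are not reported here. Genes like a member had at least 10 CPM on average. Intervals of counts cover counting error only.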

Additional observations from a re-analysis of the deposited data

How the results depend on the processing

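Of 570 comparisons of a member's fold change with an alternative setting, 515 kept direction and call, 21 lost the call, 14 gained it and 20 changed sign, and 16 of 30 member and comparison pairs kept both in every one of 19 settings. Sign changes concerned differences that were not called. For MACRO Ly6Ghigh against NL, Ncoa4 moved to -0.16 (upper-quartile factors), -0.14 (at least 10 counts in every library), -0.42 (log2(FPKM + 1), with or without a filter at FPKM 1) and -0.42 (log2(FPKM + 0.1)), and Tfrc to -0.034, -0.034 and -0.038 on the FPKM scales. For Ly6Glow against NL, Ftl1 moved to -0.35 and Slc11a1 to -0.31 on all 3 FPKM scales, and Tfrc to 0.016 with DESeq2 size factors and the DESeq2 test and to 0.017 without NL replicate 2 (range over left-out libraries -0.14 to 0.017). Between the MACRO subsets, Ireb2 moved to 0.039 with DESeq2 size factors and the DESeq2 test and to 0.0075 without Ly6Glow replicate 2 (range over left-out libraries -0.073 to 0.0075).

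Counts of calls moved as follows, and the share of all tested genes called higher or lower was not computed under these settings. On the FPKM scales, members in Ly6Glow against NL were 2 higher and 4 lower, and a fold threshold of 1 (log2) left 2 higher. That threshold left 1 member lower in MACRO Ly6Ghigh against NL, and 1 higher and 0 lower between the MACRO subsets, where 5 were higher with no threshold. Other iron genes called higher in MACRO Ly6Ghigh against NL were 6, 7 and 6 on log2(FPKM + 1), log2(FPKM + 0.1) and the filtered FPKM scale, 18 with no threshold and 6 at a threshold of 1. In Ly6Glow against NL they were 9 with upper-quartile factors, 9 with at least 10 counts in every library, 5 on each FPKM scale and 8 at a threshold of 1. Between the MACRO subsets 1 was higher on each FPKM scale, 12 with no threshold and 0 at a threshold of 1, and 20 were lower with log2(FPKM + 0.1), 20 with no threshold and 5 at a threshold of 1. The cause of these shifts was not tested beyond the thresholds' own construction.

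The replicate block changed no call: members stayed at 3 higher and 3 lower between the MACRO subsets and at 4 and 2 in Ly6Glow against NL. Deviations of same-numbered libraries correlated at -0.068 to 0.077, and the best match carried the same number in 3 of 18 cases. No pairing by number was seen, but deviations within groups were small, so this check cannot exclude it. Ratios kept their direction in all settings, but the exact test of 3 against 3 cannot go below p = 0.1. Depth limits mainly Slc11a2 and Aco1.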

Other observations

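The 11 further iron genes too rare to test included the hepcidin gene Hamp, the systemic inhibitor of ferroportin, with 2.0, 4.0 and 2.68 estimated counts in MACRO Ly6Ghigh libraries, 0 in each MACRO Ly6Glow library, which allows up to 3 counts per library, and 4.29, 4.0 and 5.0 counts in NL libraries. Tfr2, the second transferrin receptor, had 8.0, 3.0 and 3.81 counts in MACRO Ly6Ghigh, 3.0, 4.0 and 0.98 in MACRO Ly6Glow, and 1.0, 2.0 and 0 in NL. Alas2, the erythroid enzyme of heme synthesis, had 18.0, 7.0 and 11.96 counts in NL and at most 2.0 in any MACRO library. Epas1, a hypoxia-inducible factor gene that is also known for an IRE, was at 684.2, 627.6 and 659.7 CPM in NL, 79.97, 73.14 and 72.98 CPM in MACRO Ly6Ghigh and 88.45, 84.29 and 86.91 CPM in MACRO Ly6Glow. Epas1 is widely used by endothelial cells, whose markers were higher in the NL libraries, and their part in this difference was not tested.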
